A study of Mus musculus with 6 samples.

Results

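The 10 genes described here are induced through the T cell receptor (TCR) and were compared between regulatory T (Treg) cells of pancreas and spleen. They are the orphan nuclear receptor genes Nr4a1, Nr4a2 and Nr4a3, the zinc finger genes Egr1, Egr2 and Egr3, the surface proteins Cd69, Cd5 and Cd83, and the growth regulator Myc. The 10 members were taken by name, by a rule that uses no measured value, from the 19752 genes with a probe set annotated to exactly 1 gene. The list of names was drawn up with earlier results of these data known. Each tissue gave 3 arrays, made from Treg cells of 10-week-old prediabetic female NOD mice, a strain that develops autoimmune diabetes spontaneously. All mice carried Foxp3-ires-gfp, a reporter that links green fluorescent protein to Foxp3, and their background is labelled NOD NRB_SFB+, a term the labels do not explain. Cells were sorted on a MoFlo as DAPI- CD4+ TCRb+ CD45+ GFP+ and sorted again into TRIzol. No treatment is named, and the labels of the groups differ in tissue only. Nothing states if an array stands for 1 mouse, several or a pool. The p-values therefore cover just the scatter of these 6 samples, and that scatter could be technical.

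As background, binding of antigen to the TCR opens calcium entry, which activates calcineurin and the NFAT factors, and it activates the MAP kinase cascade. Nr4a and Egr genes are among the first to be transcribed in response, and reporters of Nr4a1 and levels of CD5 are widely read as gauges of TCR signal strength. In Treg cells the NR4A receptors are known to bind the Foxp3 locus and to be needed for the lineage. Egr2 and Egr3 are known for restraining T cell activation, CD69 holds cells in tissue by pulling the egress receptor S1PR1 from the surface, CD83 protects MHC class II and CD86 from degradation, and Myc drives growth.

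In pancreatic Treg cells Nr4a2 rose 3.60-fold over splenic Treg cells, and it was the only member of 10 past the adjusted threshold of 0.05. The call rate over all genes was 0.678% in either direction and 0.547% for genes higher in pancreas. Nr4a1 and Nr4a3 had higher values on all 3 pancreas arrays than on any spleen array but missed the threshold. None of the other 7 members separated the tissues. The mean was higher in pancreas for 9 of the 10 members, against 49.8% of all genes, and the median log2 difference was 0.27, against 0.00 over all genes. At an unadjusted p of 0.05, 3 members passed, all Nr4a genes, where 6.84% of all genes passed.

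The bases just upstream of the Nr4a genes are shown because these 3 members were the ones whose arrays did not overlap, and an Egr2 start is shown beside them. The sequences are the 250 bases before the transcription start in RefSeq on GRCm38.p6, read 5′ to 3′ on the gene's strand. The reference strain is not NOD. Capitals mark the core of the cyclic AMP response element (CRE), CGTCA or its complement TGACG, the site that CREB binds.
Nr4a1: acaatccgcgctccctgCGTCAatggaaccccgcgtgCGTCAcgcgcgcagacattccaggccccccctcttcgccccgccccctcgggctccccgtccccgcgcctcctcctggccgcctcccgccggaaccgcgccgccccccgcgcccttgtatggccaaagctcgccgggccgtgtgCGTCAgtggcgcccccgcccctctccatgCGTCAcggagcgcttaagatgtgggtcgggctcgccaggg
Nr4a2: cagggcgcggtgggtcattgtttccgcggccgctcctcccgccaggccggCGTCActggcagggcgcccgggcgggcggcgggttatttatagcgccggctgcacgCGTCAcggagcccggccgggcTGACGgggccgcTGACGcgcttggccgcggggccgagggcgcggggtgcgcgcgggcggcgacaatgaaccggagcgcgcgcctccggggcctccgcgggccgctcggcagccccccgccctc
Nr4a3: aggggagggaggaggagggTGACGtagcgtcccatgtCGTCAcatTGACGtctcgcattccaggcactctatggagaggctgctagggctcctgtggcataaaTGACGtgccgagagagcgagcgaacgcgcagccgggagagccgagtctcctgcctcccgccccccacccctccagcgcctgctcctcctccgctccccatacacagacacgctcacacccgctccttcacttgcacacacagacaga
Egr2: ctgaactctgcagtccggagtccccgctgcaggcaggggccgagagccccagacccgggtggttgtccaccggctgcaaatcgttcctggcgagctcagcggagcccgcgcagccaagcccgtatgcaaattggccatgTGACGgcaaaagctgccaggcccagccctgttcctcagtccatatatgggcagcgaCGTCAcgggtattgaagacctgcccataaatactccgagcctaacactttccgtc
The windows lie at chr15:101266596-101266845 on the plus strand for Nr4a1, chr2:57124004-57124253 on the minus strand for Nr4a2, chr4:48045055-48045304 on the plus strand for Nr4a3, and chr10:67537619-67537868 on the plus strand for Egr2. RefSeq entries matched 5 of the 10 members, with 9 windows, of which Egr2 has 5. Egr1, Egr3, Cd69, Cd83 and Myc had none.

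Each of the 3 Nr4a windows held the CRE core 4 times. Over the 32851 windows of 300 bases for 27025 genes, 20.8% held CGTCA on either strand at least once and 0.231%, or 76 windows, held it 4 times or more. In Nr4a1 all 4 lay within TGCGTCA, a site like that of AP-1, which 2.12% of all windows held and which only this window of the 32851 held 4 times. Of the Egr2 windows, 3 overlapping ones held the core 2 times and the other 2 did not hold it, and the Cd5 window at chr19:10738975-10739224 on the minus strand did not hold it. The CArG box, the site of serum response factor, was in 4 of the 5 Egr2 windows and in 1.63% of all windows. The 3 overlapping Egr2 windows share the same box. The Egr site GCGNGGGCG was in the Nr4a1 and Nr4a2 windows, 1 time each, and in 5.55% of all windows. The Nr4a site AAAGGTCA was in none of the 9 windows and in 1.51% of all. The full CRE TGACGTCA, in 1.79% of all windows, and the AP-1 site TGANTCA, in 7.81%, were in none of them either. The NFAT core GGAAA, which 61.3% of all windows held, was absent from the Nr4a1 and Nr4a3 windows and present 1 time in those of Nr4a2 and Cd5. It was present in 4 of the 5 Egr2 windows, of which the 3 overlapping ones share the same site. These motifs were chosen after the sequences had been read, they can overlap each other, and a match describes letters, not binding. The shares over all windows were not matched for content of G and C. That content was 72.3% in the Nr4a1 window, 81.7% in that of Nr4a2 and 64.7% in that of Nr4a3.

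Values below are log2 intensities, in which 1 unit is a doubling, and each member was read by 1 probe set. All 60 member values lay above the background level, an intensity of 63.9 or 6.0 on the log2 scale. Intensities of different probe sets are on scales of their own, so genes are not ranked by level. In RNA from bulk sorted cells, fewer cells that express a gene and less RNA per cell cannot be told apart.

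**Figure D1:**
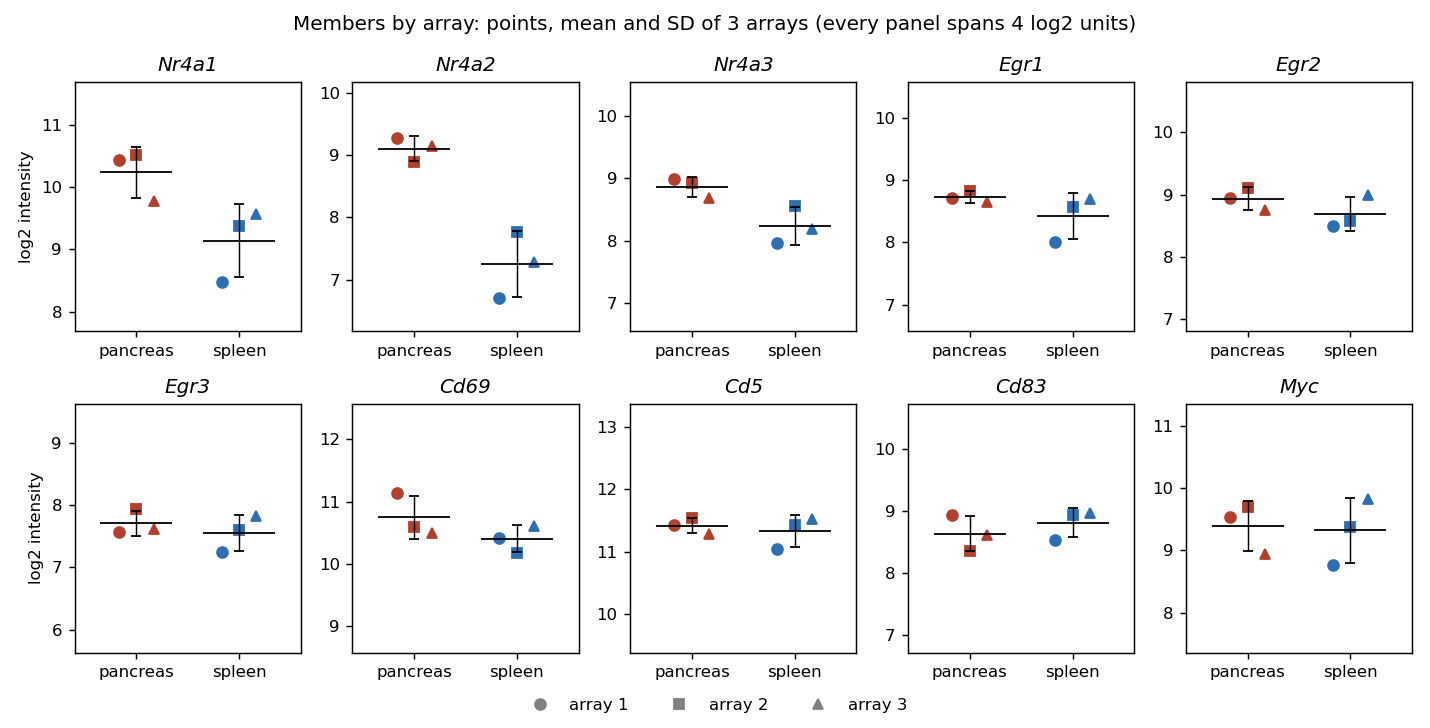
Log2 intensity of the 10 members on each array, pancreas in red and spleen in blue, with the mean and SD of 3 arrays as black bars; every panel spans 4 log2 units. The pancreas arrays stand clear of the spleen arrays for Nr4a1, Nr4a2 and Nr4a3, and overlap them for the other 7 genes.

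Nr4a2, also called Nurr1, measured 9.27, 8.88 and 9.15 on pancreas arrays 1 to 3 and 6.70, 7.77 and 7.28 on spleen arrays 1 to 3. The lowest pancreas array was 1.11 above the highest spleen array, and the spleen arrays were the more scattered. The means were 9.10 ± 0.20 in pancreas and 7.25 ± 0.54 in spleen (SD, n = 3), a log2 difference of 1.85 (SE 0.25, 95% interval 1.29 to 2.40) with an adjusted p of 0.00952. It ranked 38th of 19752 genes by p and 45th by fold. When each array was left out in turn, Nr4a2 stayed past the threshold in 5 of 6 fits, and without pancreas replicate 1 the difference was 1.76 with an adjusted p of 0.0562.

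Nr4a1, or Nur77, measured 10.43, 10.52 and 9.77 in pancreas and 8.47, 9.38 and 9.57 in spleen. The tissues did not overlap, but only 0.20 separated pancreas array 3 from spleen array 3. The difference was 1.10 (SE 0.29, 95% interval 0.45 to 1.75), 2.15-fold, with an adjusted p of 0.188 in the limma fit, and it ranked 366th of all genes by p. With each array left out in turn, the difference ran from 0.77 without spleen replicate 1 (adjusted p of 0.45) to 1.34 without pancreas replicate 3 (0.0205), the only 1 of the 6 fits in which it passed. The fit without pancreas replicate 3 called 262 of all genes, against 134 as reported.

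Nr4a3, or Nor1, measured 8.98, 8.92 and 8.68 in pancreas and 7.96, 8.56 and 8.19 in spleen. Again no spleen array reached a pancreas array, by a margin of 0.12. The difference was 0.62 (SE 0.19, 95% interval 0.20 to 1.05), 1.54-fold, with an adjusted p of 0.311. So all 3 receptors had non-overlapping arrays with pancreas higher, a pattern that 4.57% of all genes showed, and 3 of the 10 members. Their median difference was 1.10, and each kept its direction in all 18 alternative settings, though several of these could not change a member's difference. Whether the 3 receptors differ from each other in their response was not tested.

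**Figure D2:**
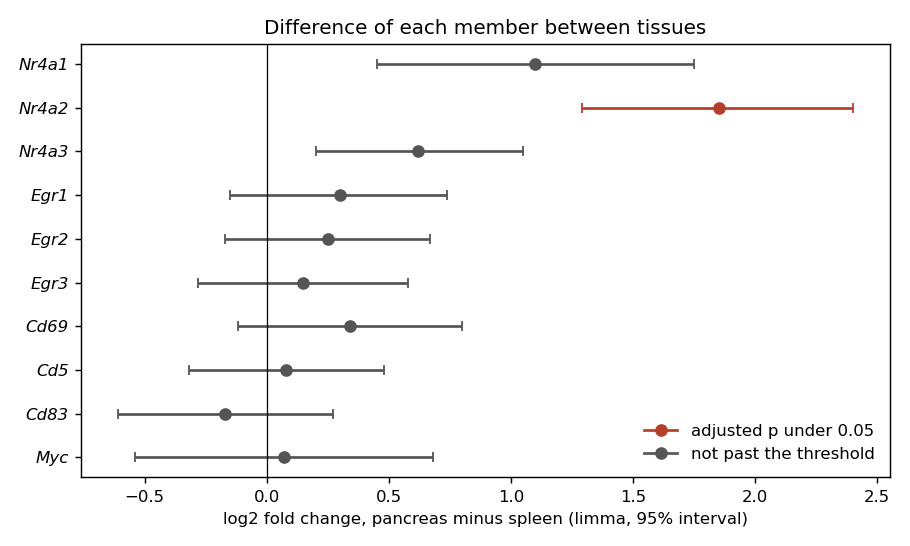
Log2 difference of each member, pancreas minus spleen, with its 95% interval from limma; red marks an adjusted p under 0.05. The intervals of the 3 Nr4a genes lie above 0, from 0.20 to 2.40, and those of the other 7 members cross it.

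The Egr factors, which share a DNA site, did not pass the test. Egr1 measured 8.71, 8.83 and 8.64 in pancreas and 8.01, 8.57 and 8.70 in spleen. Only spleen array 1 was clearly apart from the rest. The difference was 0.30 (95% interval -0.15 to 0.74). Egr2 measured 8.95, 9.11 and 8.75 in pancreas and 8.49, 8.57 and 9.0 in spleen. Here spleen array 3 sat among the pancreas arrays, and the difference was 0.25 (95% interval -0.17 to 0.67). Egr3 measured 7.57, 7.94 and 7.61 in pancreas and 7.25, 7.60 and 7.82 in spleen, and the tissues overlapped. Its difference was 0.15 (95% interval -0.28 to 0.58). The intervals leave room for an increase of the size fitted for Nr4a3 in Egr1 and Egr2, so the arrays do not show that these genes were alike in both tissues.

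Among the surface proteins, Cd69, the early activation lectin, measured 11.14, 10.60 and 10.50 in pancreas and 10.42, 10.18 and 10.61 in spleen. Pancreas array 1 was the highest of all, and spleen array 3 lay above the other two pancreas arrays. The difference was 0.34 (95% interval -0.12 to 0.80, adjusted p of 0.995). Cd5, an inhibitory receptor set by the strength of TCR signals, measured 11.43, 11.54 and 11.29 in pancreas and 11.05, 11.43 and 11.53 in spleen. Spleen arrays 2 and 3 lay among the pancreas arrays, and spleen array 1 lay below all of them. Its difference of 0.08 had an interval of -0.32 to 0.48, which leaves out a change as large as the one fitted for Nr4a3 or Nr4a1.

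Cd83 measured 8.93, 8.36 and 8.62 in pancreas and 8.54, 8.93 and 8.96 in spleen. It was the only member with a lower mean in pancreas, and its arrays overlapped. The difference was -0.17 (95% interval -0.61 to 0.27). Myc measured 9.54, 9.69 and 8.94 in pancreas and 8.77, 9.37 and 9.82 in spleen. The arrays of each tissue spread over most of the same range, and the highest value of all was a spleen array. The difference was 0.07 (95% interval -0.54 to 0.68), one of the wider intervals of the members.

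The order of the arrays within a tissue followed a property of the arrays for many members in spleen and for few in pancreas. The interquartile range of log2 values over all genes, the width of an array's distribution, was 2.96, 2.63 and 2.10 on pancreas arrays 1 to 3 and 2.38, 2.69 and 2.90 on spleen arrays 1 to 3. In spleen, 7 of the 10 members ordered the arrays as the width did, all but Nr4a2, Nr4a3 and Cd69, against 30.7% of the 11698 genes with a mean above background. In pancreas 2 members, Nr4a3 and Cd69, followed the width, against 40.8%. The lowest spleen value fell on array 1, the narrowest, for 9 members, and the lowest pancreas value on array 3, the narrowest, for 7. The share of all genes with the same pattern was not computed for either count. With spleen array 1 and pancreas array 3 both left out, Nr4a1 and Nr4a2 passed the threshold, and with width as a covariate all 3 Nr4a genes did. These fits called 347 and 544 of all genes, against 134 as reported. With all arrays brought to a common width, Nr4a2 had a difference of 1.98 and an adjusted p of 0.0568, and no member passed in limma. The part of array width in the spread of the members was not tested further.

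**Figure D3:**
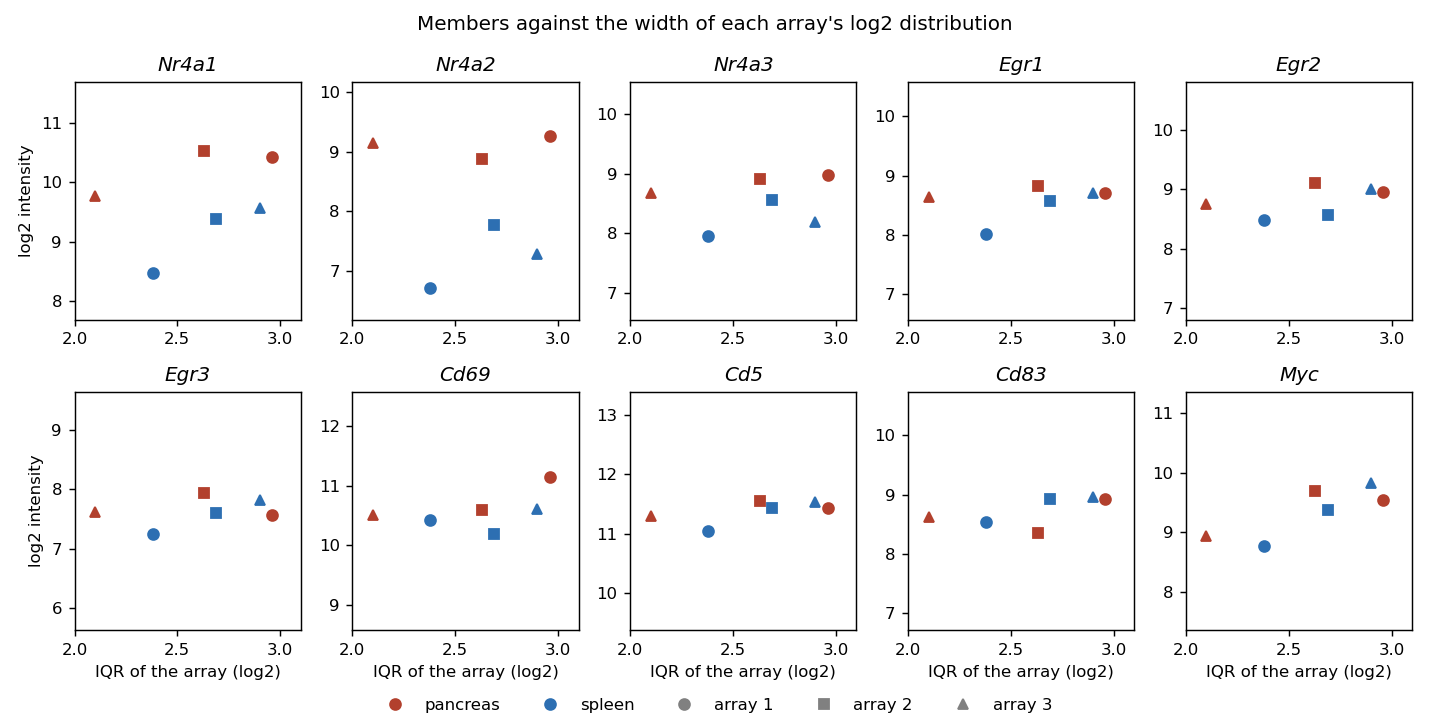
Log2 intensity of each member against the interquartile range of the array's log2 values, with pancreas in red and spleen in blue and a marker shape for each array number. Spleen array 1, with a width of 2.38, holds the lowest spleen value for 9 members, and Nr4a2 is higher on every pancreas array than on any spleen array.

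Genes of the pathways around the members were read from lists, whose medians stand beside the median of 0.00 over all genes. Upstream, the NFAT and calcineurin list had 0 of 13 genes past the limma threshold, 0 at an unadjusted p of 0.05 and a median of -0.19. Stim2, the calcium sensor of the endoplasmic reticulum, had a difference of -0.27, and Ppp3cc, a catalytic subunit of calcineurin, one of -0.22. The list of inhibitory proteins of TCR signalling, the company of Cd5, had 0 of 17 past the limma threshold and 1 lower at an unadjusted p of 0.05, with a median of -0.03. That gene was Themis, a TCR signalling adaptor, with a difference of -0.82 and an adjusted p of 0.101. Dgka, which removes diacylglycerol, had a difference of -0.34.

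Other genes induced through the TCR leaned to pancreas, with 15 of 20 higher in mean and a median of 0.41. At an unadjusted p of 0.05, 8 were higher and 2 lower, and 1 passed after adjustment. It was Bhlhe40, a repressor of Il10, which measured 8.93, 8.76 and 7.95 in pancreas and 5.91, 6.98 and 7.23 in spleen, where array 1 was just under background. Its difference was 1.84 with an adjusted p of 0.0473, and the call was lost without pancreas replicate 1 (0.115) or 2 (0.183) or spleen replicate 1 (0.0616) or 2 (0.0878). Nfil3, a basic leucine zipper repressor, had a difference of 1.23 and an adjusted p of 0.0548.

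The list of partners and targets of the Egr factors had 2 of 16 past the threshold, both higher in pancreas, while its median was -0.03. Lag3, an inhibitory receptor that binds MHC class II, measured 8.95, 9.24 and 8.49 in pancreas and 6.56, 6.76 and 7.53 in spleen. The tissues stood apart, 3.84-fold, with an adjusted p of 0.00959, and 0.0594 without pancreas replicate 1. Sema7a, a membrane semaphorin, rose 1.95-fold with an adjusted p of 0.0245. Its call was lost, at 0.0595 to 0.152, when any array but pancreas replicate 3 was left out.

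For partners and targets of Nr4a receptors, limma called 0 of 10, 1 was higher at an unadjusted p of 0.05, and the median was 0.04. The gene was Havcr2, which encodes the inhibitory receptor TIM-3, with a difference of 1.05 and an adjusted p of 0.0667. Tox2, an HMG box factor, had a difference of 0.49 with an adjusted p of 0.811. In the Myc network, limma called 0 of 13, with 1 higher and 1 lower at an unadjusted p of 0.05 and a median of -0.04. Mxd1, an antagonist of Myc, had a difference of 0.72 (adjusted p of 0.292), and Mga, a Max partner, one of -0.51 (adjusted p of 0.668). Of 24 Myc targets 19 had a higher mean in pancreas, with a median of 0.12, but 0 passed in limma and 2 did at an unadjusted p of 0.05. Odc1, the first enzyme of polyamine synthesis, had a difference of 0.80 (adjusted p of 0.0959), and Hspe1, a mitochondrial chaperonin, one of 0.43 (adjusted p of 0.652).

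The 5 measured genes of egress and lymph node homing, the company of Cd69, all had a lower mean in pancreas, with a median of -0.47. Limma called 0 of them, and 3 were lower at an unadjusted p of 0.05. Ccr7, the receptor that guides cells into lymph nodes, measured 10.56, 10.45 and 10.26 in pancreas and 10.95, 11.17 and 11.47 in spleen. The tissues did not overlap, and the difference was -0.78 with an adjusted p of 0.123. Klf3, a repressor of the KLF family, had a difference of -0.67 (adjusted p of 0.215).

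**Figure D4:**
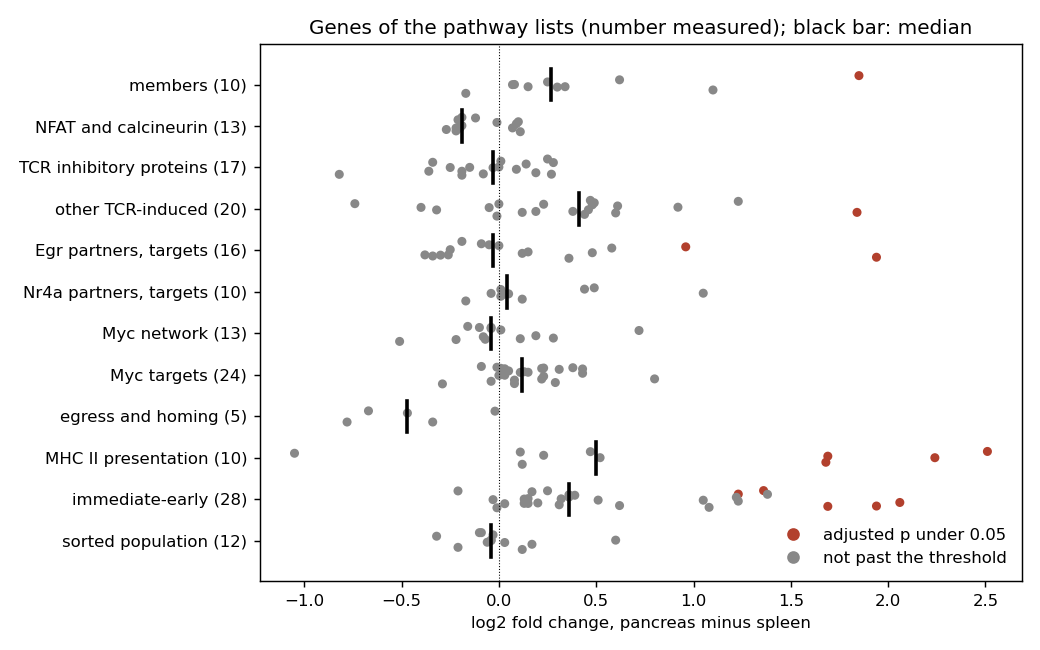
Log2 difference, pancreas minus spleen, of every measured gene of the members and the pathway lists, with 1 point per gene, red for an adjusted p under 0.05 and a black bar at the list's median. Red points lie among the members, other TCR-induced genes, Egr partners and targets, MHC class II presentation and immediate-early genes, all to the right of 0.

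Immediate-early genes, which are induced by TCR signals and by cell stress, had 5 of 28 past the threshold, all higher in pancreas. The median was 0.36, and 14 were higher and 0 lower at an unadjusted p of 0.05. Fos, a subunit of AP-1, measured 8.46, 8.29 and 7.81 in pancreas and 5.94, 6.19 and 6.26 in spleen. Spleen array 1 was just under background. The gap between tissues was wider than the spread within either, and the difference of 2.06 had an adjusted p of 0.00127. Fosb rose by 1.23 (adjusted p of 0.00779), and Jun, the partner of Fos, by 1.94 (adjusted p of 0.0207). Ppp1r15a, a phosphatase subunit induced by stress, rose by 1.69 (adjusted p of 0.0337). The fifth gene was Dusp1, a MAP kinase phosphatase, at 1.36, with an adjusted p of 0.0495 that lay just under the threshold. The call of Jun was lost without pancreas replicate 1 (0.0865) or 2 (0.0665), and that of Ppp1r15a, at 0.0565 to 0.0914, when any array but pancreas replicate 3 was left out. The summed intensity of the list was 15925, 16712 and 11970 on pancreas arrays 1 to 3 and 7728, 9827 and 10543 on spleen arrays 1 to 3. Nr4a1, Egr1, Egr2, Cd5 and Myc had the same order of arrays as this sum within each tissue. The order is not particular to this list, since the summed intensity of the Myc targets had it too. In spleen it is the order of array width, which 30.7% of the 11698 genes with a mean above background had.

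MHC class II presentation, the company of Cd83, had 4 of 10 genes past the threshold, all higher in pancreas, and a median of 0.50. At an unadjusted p of 0.05, 5 were higher and 1 lower. The lower one was Cd86, the co-stimulatory ligand that CD83 protects, at 6.46, 5.70 and 5.87 in pancreas and 7.25, 6.96 and 6.97 in spleen. The tissues did not overlap, with pancreas arrays 2 and 3 below background, and the adjusted p was 0.0661. H2-Aa rose 5.70-fold (adjusted p of 0.00506), and Cd74, the invariant chain, rose 4.72-fold (adjusted p of 0.00586). H2-Ab1 rose 3.23-fold (adjusted p of 0.00952) and H2-Eb1 3.20-fold (adjusted p of 0.0152, and 0.0619 without pancreas replicate 1). On spleen array 1 H2-Aa was at 5.99, just under background. The summed intensity of the list was 3674, 2745 and 4287 on pancreas arrays 1 to 3 and 1414, 1835 and 1496 on spleen arrays 1 to 3. The sum of 13 B cell genes was 2072, 1217 and 2640 in pancreas and 957, 1049 and 929 in spleen. The 2 sums ordered the arrays alike in pancreas but not in spleen, and the part of B cells in the class II values was not tested.

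Foxp3 and 3 other markers of the sorted population overlapped between the tissues. The differences were -0.04 for Foxp3, -0.09 for Cd4, -0.10 for Cd3e and -0.21 for Ptprc, which encodes CD45, each with an adjusted p of 1.0. All 4 turned to a higher mean in pancreas when the arrays were brought to a common width, and Foxp3 and Cd4 did so in further settings. Of the 12 measured genes of this list limma called 0, and 1 was higher at an unadjusted p of 0.05, with a median of -0.04. The arrays of 2 genes of the list did not overlap, Ctla4, with a difference of 0.60 (adjusted p of 0.318), and Il2ra, with one of -0.32 (adjusted p of 0.842).

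Markers of other cells were read as a check of the sort, whose gate, applied again in a second pass, is meant to remove these cells. Of 13 B cell genes all had a higher mean, 11 at an unadjusted p of 0.05, with a median of 0.81, and 1 passed. That was Cd79a, at 7.73, 6.80 and 8.36 in pancreas and 5.62, 6.27 and 5.43 in spleen, with an adjusted p of 0.0482 that rose to 0.0518 to 0.142 without pancreas replicate 1 or any 1 spleen array. Ms4a1 was at least 2.89-fold higher in pancreas, since all spleen arrays were below background, with an adjusted p of 0.0678. Of 16 acinar genes all had a higher mean and 12 passed, with a median of 2.76 and summed intensities of 20403, 31435 and 15306 in pancreas against 1300 to 3148 in spleen. Ctrb1 differed by 4.57 (adjusted p of 0.00952, and 0.0619 without pancreas replicate 1) and Clps by 4.37 (adjusted p of 9.26e-05), while the acinar factors Ptf1a and Bhlha15 were below background on every array.

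Of 15 macrophage and dendritic cell genes 1 passed, Lyz2, by 1.90 (adjusted p of 0.00134), and the list had a median of 0.10. Its sums were 1707 to 2012 in pancreas and 1082 to 1232 in spleen, and 8 genes were below background on every array, among them Itgax, Csf1r and Adgre1. Cd209a measured 7.40, 6.27 and 7.91 in pancreas and 6.02, 5.70 and 5.64 in spleen, where arrays 2 and 3 were below background (adjusted p of 0.132). Islet genes had sums of 355 to 518 in pancreas and 359 to 412 in spleen, with 0 of 8 called in limma, 1 higher at an unadjusted p of 0.05 and a median of 0.12. Pcsk1 was below background on every array, and Ins2 had a difference of 0.21. CD8 T and NK genes had sums of 607 to 750 and 561 to 689, with a median of 0.12. The 1 called of 7, Klrd1 (adjusted p of 0.0397), was below background on every array, as was Ncr1, and the call was lost, at 0.0801 to 0.218, without pancreas replicate 1 or 2 or spleen replicate 2 or 3.

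Neutrophil genes had sums of 335 to 364 and 298 to 393, with 0 of 7 called in limma, 0 at an unadjusted p of 0.05 and a median of 0.08. Elane was below background on every array, and Mpo was above it on 2 of 6. Endothelial and stromal genes had sums of 1030 to 1074 in pancreas and 1306 to 1398 in spleen, with 0 of 8 called, 1 lower at an unadjusted p of 0.05 and a median of 0.01. That gene was Pecam1, with a difference of -0.81 and an adjusted p of 0.112. Its intensities were 559, 439 and 362 in pancreas and 732, 829 and 795 in spleen. The other genes of the list had differences from -0.15 to 0.11, and Cdh5, Kdr and Pdgfrb were below background on every array. Of the 2 measured erythroid genes, Alas2 was above background on 1 array and Klf1 on none, with 0 called in limma and 0 at an unadjusted p of 0.05, sums of 68 to 96 and 78 to 94 and a median of -0.02. Several members, among them Nr4a1, Egr1, Cd69, Cd83 and Myc, are also made by B cells and myeloid cells. The named members are examples, and no member, Nr4a2 included, was taken to be free of signal from other cells. On pancreas array 2, where the B cell sum was lowest and the acinar sum highest, Nr4a2 and Cd83 had their lowest pancreas value and 6 members, Nr4a1, Egr1, Egr2, Egr3, Cd5 and Myc, their highest. The part of other cells in the values of the members was not tested.

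For each member the 2 genes above background whose values ran most closely with it over the 6 arrays were found by Pearson's r, as a description over arrays that share tissue and width. They were Ccrl2 (0.998) and Padi2 (0.994) for Nr4a1, Tigit (0.988) and Spag5 (0.987) for Nr4a2, and Kif22 (0.997) and Ciao2a (0.993) for Nr4a3. Of these 6 only Tigit, an inhibitory receptor of T and NK cells, passed the threshold between tissues, by 0.88 with an adjusted p of 0.0473. They were Tubb5 (0.994) and Ddost (0.992) for Egr1, Taf1c (0.991) and Psmb9 (0.991) for Egr2, and Tnf (0.997) and Aldh7a1 (0.990) for Egr3. For Cd69 the 2 were Pon3 (0.994) and Nudc (0.990), and for Cd5 they were Hspbp1 (0.997) and Ece1 (0.997). For Cd83 they were Ndufs3 (0.978) and Cfap36 (0.973), the least close of all, and for Myc they were Tmem234 (0.998) and Commd2 (0.997). A high r is easily reached when 2 genes are picked out of so many over 6 arrays, and every r was 0.973 or more. No test was made of these likenesses.

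Most member differences kept their sign across processing. Of 180 values recomputed under 18 settings, 5 changed sign, all in Egr3, Cd5 and Myc with 1 array left out. Some settings could change only the p-values of the members, not their differences. These were flooring at background, leaving out dim genes, averaging probe sets, the other variance model and the replicate block. Nr4a2 ran from 1.24 to 2.11 and passed in 15 of 18 settings, Nr4a1 from 0.77 to 1.34 and passed in 5, and Nr4a3 from 0.43 to 0.78 and passed in 2. The 5 settings in which Nr4a1 passed called 262 to 7206 of all genes, against 134 as reported. The 2 in which Nr4a3 passed, width as a covariate and array weights, called 544 and 7206. Cd83 stayed below 0 throughout, from -0.53 to -0.03. The ends 1.24 of Nr4a2, 0.43 of Nr4a3 and -0.53 of Cd83 came from limma's array weights, whose estimate stopped before converging. That fit weighted pancreas array 2 at 9.5 and spleen array 2 at 5.69, against 0.24 to 0.65 for the other arrays. It also counts among the settings in which each Nr4a gene passed.

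**Figure D5:**
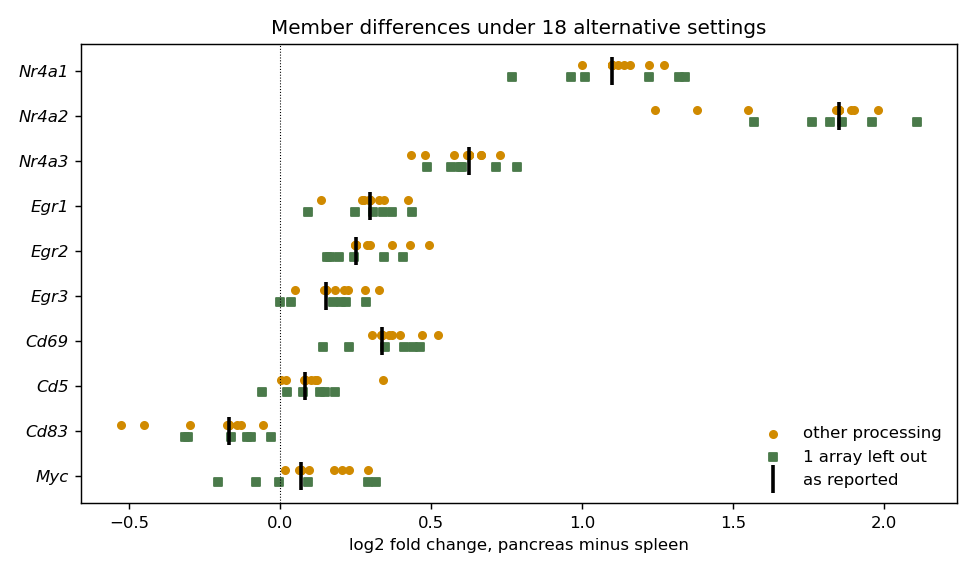
Log2 difference of each member, pancreas minus spleen, as reported (black bar), under other processing (orange circles) and with 1 array left out (green squares). The points of Nr4a1, Nr4a2 and Nr4a3 lie between 0.43 and 2.11, right of 0 in every setting, while those of Egr3, Cd5 and Myc fall on both sides. The value of 0.43 came from the fit with array weights.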

How the data were processed

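Total RNA went through the Ambion WT Expression Kit onto Affymetrix Mouse Gene 1.0 ST arrays, per the labels. The authors deposited 1 linear intensity per probe set. Per the submitters' processing notes, RMA and Affymetrix Power Tools made it, and no version is named. Array medians ran from 82.0 to 92.0, and the normalization across arrays that left this spread is not stated. Values were taken to log2 with no filter or pseudocount.

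Of 24922 probe sets 21425 name 1 gene, and for 921 genes with several the one with the highest mean over the 6 arrays was used, leaving 19752 genes. Per array 11123 to 12409 genes were above background, the 95th percentile of 1194 olfactory and vomeronasal receptor genes. For arrays, their number limits the precision. Groups came from the labelled tissue. All genes were fitted with limma 3.58.1 (R 4.3.3; lmFit, eBayes, two-sided, Benjamini-Hochberg adjustment over all genes, threshold 0.05), and 134 passed. Figures used matplotlib 3.10.9 in Python 3.11.15. The fit was tested on simulated data, in which the noise was independent between genes and arrays. The simulation held no difference in array width, so it cannot show how the fit behaves with one.

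The members and lists were chosen with earlier results of these data known. The text names the members, up to 4 genes of each pathway list past the threshold with the smallest adjusted p (the 2 with the smallest p where fewer than 2 passed), the 2 of each list of other cells with the largest difference, Foxp3, Cd4, Cd3e and Ptprc, and the 2 genes most correlated with each member. Dusp1, Cd86, Ctla4 and Il2ra were named after their values were seen. List genes that no usable probe set names are not analysed here. Alternatives covered normalization, background, dim genes, probe sets, the variance model, array weights, the replicate number and each array left out. Width as a covariate, both narrowest arrays left out and gene-by-gene weights were chosen after seeing the data.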

Additional observations from a re-analysis of the deposited data

How the results depend on the processing

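The count of members past the threshold, 1 as reported, was 0 with a common width and 0 with values floored at background, where limma called 3 genes in all and 6588 genes had every value at the floor. It was 8 with limma's array weights (Cd83 lower, 7 others higher), whose estimate stopped before converging and which called 7206 genes. It was 3 with width as a covariate, 2 without both narrowest arrays, 2 with gene-by-gene weights, and 0 to 2 with 1 array left out, being 0 without pancreas replicate 1 and 2 without pancreas replicate 3. Of all genes, 134 as reported, 203 passed after quantile normalization, 64 with medians centred, 66 with a common width, 544 with the width covariate, 347 without both narrowest arrays, 1684 with gene-by-gene weights, and 64 to 262 with 1 array left out. Among left-out fits, Egr3 ran from -0.000953 to 0.28, Cd5 from -0.0619 to 0.18 and Myc from -0.206 to 0.32. Below 0 were Egr3 (-0.000953) and Cd5 (-0.0619) without spleen replicate 1, and Myc without spleen replicate 1 (-0.206) and without pancreas replicate 1 (-0.00582) or 2 (-0.0815). The cause of these shifts was not tested. No setting moved the median of all genes by more than 0.04. With the replicate number as a block, 1 member (Nr4a2, adjusted p of 0.00244) and 132 genes passed. Nothing states if same-numbered arrays are paired. Their deviations from the tissue means correlated at -0.18, 0.05 and -0.63 over 11698 genes. This cannot decide the question, because array width falls with the number in pancreas and rises with it in spleen. With 3 arrays a tissue, changes as small as those of the Egr genes lie within the intervals and cannot be called.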
